A study of Mus musculus with 6 samples.

Results

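The collagen chain genes, which encode the alpha chains of the collagens, were followed in primary cultures of mouse aortic endothelial cells. A gene was counted as a member when its symbol in the array annotation had the form Col, a type number, the letter a and a chain number. Where several probe sets read a gene, the brightest on average stood for it. The rule gave 42 genes with 82 probe sets, out of 18193 named genes on a mouse array of 45101 probe sets. Of the 42 genes, 27 reached the level filter, a log2 value of 7.717 or a signal of 194, and were tested together with all other genes that did so, 11208 in total. The transgenic mice expressed human PPARG with the dominant negative change V290M from the promoter of the endothelial cadherin gene CDH5, and the control mice carried no transgene. The labels give strain C57 for both groups, name no treatment and state no age. Each culture came from 2 mice, 5 cultures were set up per group and 3 of them were arrayed, so that n = 3 per group unless a culture is said to be left out. They are called control and transgenic cultures 1 to 3, and the labels do not say that the numbers pair them. Levels are log2 of the MAS5 signal plus 16. In the plots the controls are named non-transgenic. Each difference is the transgenic minus the control mean on this scale, on which the change of a dim gene appears smaller than it is.

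Collagens are matrix proteins whose chains wind around each other into a stiff helix, and each type is built from its own chain or set of chains. Fibrillar types such as I, III, V and XI form the load-bearing fibres of the vessel wall, type IV forms the network of basement membranes under endothelium, and type VI forms beaded filaments close to cells. Fibril-associated types such as XII and XIV coat fibrils, multiplexins (XV and XVIII) sit at basement membranes, and type VIII forms a short-chain network known from vessel walls.

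The brightest collagen probe sets belonged to fibrillar, basement membrane and type VI chains. The means over the 6 cultures were 14.45 for Col1a2, 14.43 for Col3a1, 14.32 for Col4a2, 14.30 for Col4a1, 14.10 for Col6a1 and 13.96 for Col1a1. Brightness does not order the amounts of different transcripts. The 3 chains just inside the filter were Col19a1 at 7.72, Col4a4 at 7.76 and Col14a1 at 8.23. The 3 just outside were Col7a1 at 7.69, Col22a1 at 7.33 and Col25a1 at 7.29. Of the 15 chains below the filter, Col2a1, Col9a1, Col9a2, Col9a3, Col10a1 and Col11a2 are best known from cartilage. The other chains below it were Col4a3, Col6a4, Col6a5, Col7a1, Col13a1, Col17a1, Col22a1, Col25a1 and Col26a1.

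**Figure D1:**
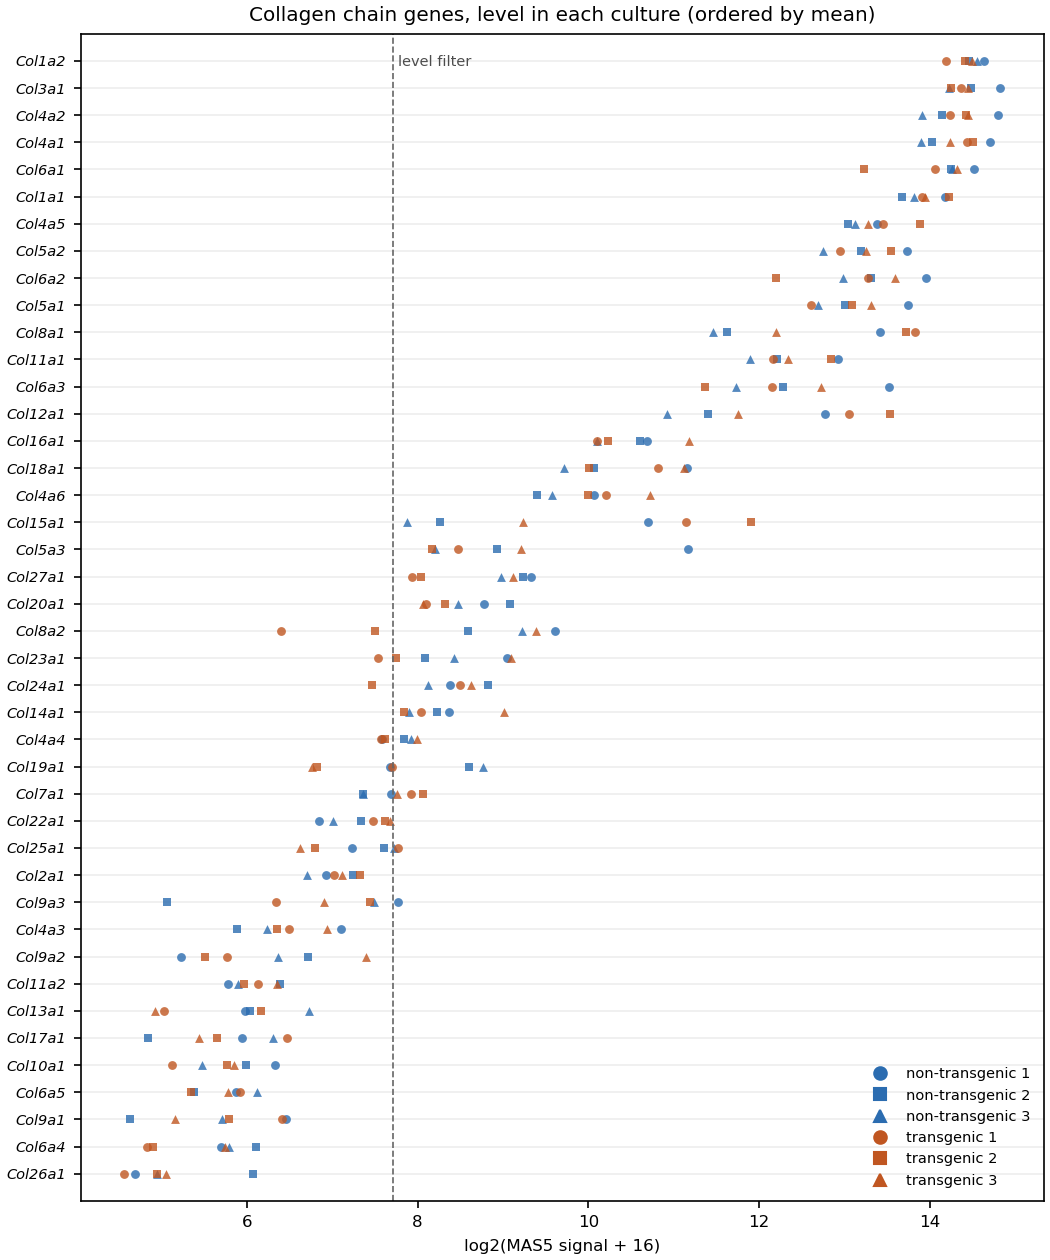
Level of each of the 42 collagen chain genes in each culture, as log2(MAS5 signal + 16) on the horizontal axis; genes are ordered by their mean over the 6 cultures, colours separate the control (non-transgenic) from the transgenic cultures, and the dashed line is the level filter at 7.717. The values of Col1a2, Col3a1 and Col1a1 lie close together across cultures, while those of Col15a1, Col8a2 and Col5a3 spread widely.

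Some properties of the arrays bear on every value. The array of transgenic culture 3 had a mean rank correlation of 0.972 with the control arrays and of 0.907 with the other transgenic arrays. The Gapdh 3' to 5' signal ratio, a measure of transcript completeness, was 1.51 to 1.71 in control and 1.20 to 1.44 in transgenic cultures. These ranges do not overlap, so a fit with this ratio as covariate cannot cleanly separate it from genotype. Of 20 endothelial markers 8 were above the filter, and the defining markers Cdh5, Pecam1, Nos3, Kdr and Vwf were below it. Above it were 20 of 20 fibroblast markers other than collagens, 9 of 10 adipocyte markers, 10 of 14 of smooth muscle, 6 of 11 mesothelial and epithelial ones, 3 of 8 from chondrocytes and osteoblasts, and 4 of 18 from leukocytes and macrophages. In bulk cultures, fewer cells of a type and less RNA per cell cannot be told apart. The transgene is a human sequence, so the mouse Pparg probe set does not check the labels.

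The comparison asked how collagen expression differs between cultures from transgenic and from control mice. None of the 27 chains passed limma's test at an adjusted p of 0.05, and 0% of all tested genes did. In the transgenic cultures 13 chains lay higher and 14 lower, and their median difference was -0.05, against -0.02 over all genes tested. When each array was centred on its median, the median of all genes moved to 0.25 and 18 of the 27 chains lay higher. At an unadjusted p under 0.05 stood 0 higher chains (6.47% of all genes) and 1 lower chain (5.02%). The groups did not overlap for 0 higher chains (9.39% of all genes) and for 1 lower chain (6.72%). Differences of 1 or more were seen in 3 higher chains, Col15a1, Col8a1 and Col12a1 (3.16% of all genes), and in 2 lower ones, Col8a2 and Col19a1 (2.8%).

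**Figure D2:**
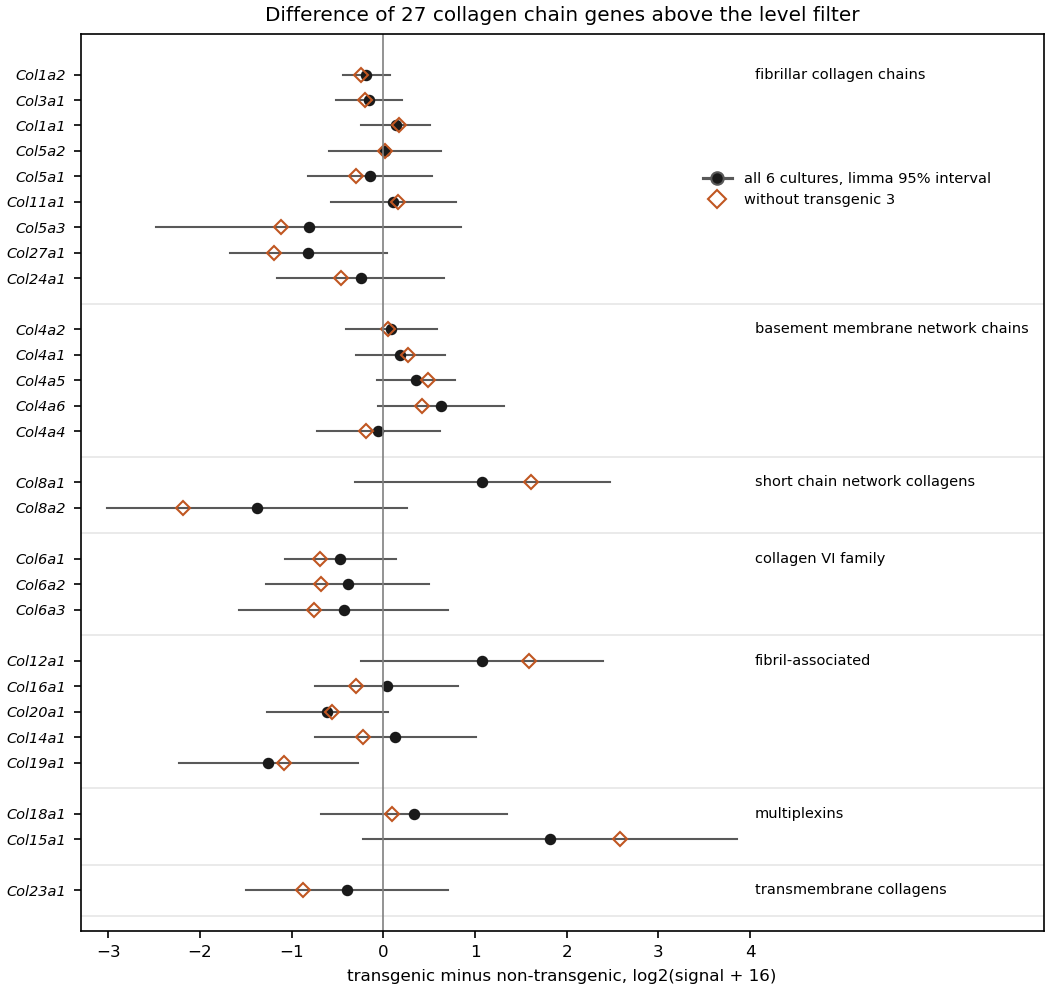
Transgenic minus control difference on the log2(signal + 16) scale for the 27 collagen chain genes above the level filter, grouped by collagen class, with limma's 95% interval from all 6 cultures and, as open diamonds, the values without transgenic culture 3. The interval of Col19a1 leaves out 0, and those of Col15a1, Col8a1, Col12a1 and Col8a2 are wide.

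The major fibrillar chains varied little on the probe sets that stood for them. Col1a1, which with Col1a2 builds type I collagen, stood at 14.18, 13.68 and 13.81 in control and 13.90, 14.23 and 13.94 in transgenic cultures. Col1a2 stood at 14.64, 14.45 and 14.55 in control and 14.19, 14.41 and 14.49 in transgenic cultures. The groups overlapped for Col1a1 and, by transgenic culture 3, for Col1a2. Their differences were 0.13 ± 0.16 (SE) and -0.18 ± 0.11, with limma's 95% intervals from -0.24 to 0.51 and from -0.44 to 0.07. Col3a1, the single chain of type III collagen, stood at 14.82, 14.49 and 14.23 in control and 14.36, 14.25 and 14.45 in transgenic cultures. Its groups overlapped too, with a difference of -0.16 ± 0.15. Over the 6 cultures these probe sets ranged by 0.55, 0.45 and 0.59, against a median of 0.84 over all genes tested. The dimmer Col1a1 probe set spread more, at 13.74, 12.77 and 12.36 in control and 12.99, 13.52 and 13.56 in transgenic cultures. It differed by 0.40 ± 0.34. The dimmer probe sets of Col1a2 differed by 0.08 and -0.43, and that of Col3a1 by 0.05.

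Chains of types V and XI join the fibrils of types I and III and limit their width. Col5a1 stood at 13.75, 13.01 and 12.68 in control and 12.61, 13.08 and 13.32 in transgenic cultures. Col5a2 stood at 13.74, 13.20 and 12.75 in control and 12.94, 13.55 and 13.25 in transgenic cultures. Col11a1 stood at 12.92, 12.21 and 11.89 in control and 12.16, 12.84 and 12.34 in transgenic cultures. All of these overlapped between the groups, with differences of -0.14 ± 0.29, 0.02 ± 0.26 and 0.11 ± 0.29. Col5a3, the least widespread type V chain, stood at 11.17, 8.93 and 8.20 in control and 8.47, 8.17 and 9.21 in transgenic cultures. Control culture 1 alone lay apart, and the difference of -0.81 ± 0.72 became 0.05 without it. Col27a1, a fibrillar chain known from cartilage, stood at 9.33, 9.24 and 8.98 in control and 7.94, 8.04 and 9.11 in transgenic cultures. Transgenic cultures 1 and 2 lay below every control and culture 3 among them. Its difference was -0.82 ± 0.37 (limma adjusted p = 0.44), its other probe set gave -0.63, and a fit with the Gapdh ratio as covariate gave -0.07. Col24a1, another fibrillar chain, differed by -0.25 ± 0.39.

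Type IV networks are the scaffold of basement membranes, and the chains of Col4a1 and Col4a2 assemble with each other. These genes lie head to head on mouse chromosome 8. In RefSeq's promoter table for GRCm38.p6 the listed start of Col4a1 on the minus strand is 11312826 and that of Col4a2 on the plus strand is 11312805, so the transcripts overlap by 22 bases. The stretch at chr8:11312763-11312792, plus strand, is shown because both genes start beside it, before the start of Col4a2 and just inside the transcript of Col4a1. Capitals mark the letters CCAAT.
Col4a2: gaggagctccCCAATttgttggcgctgccc
CCAAT, searched on both strands in the 250 bases before the start, was found in 12 of the 33 collagen promoters that the table holds (36.4%) and in 34.5% of its 27025 promoters. A match describes letters and is not a measured binding site.

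Col4a1 and Col4a2 had the same order among the controls but not among the transgenic cultures. Col4a1 stood at 14.70, 14.03 and 13.89 in control and 14.43, 14.51 and 14.24 in transgenic cultures. Col4a2 stood at 14.79, 14.14 and 13.91 in control and 14.23, 14.43 and 14.45 in transgenic cultures. Both were highest in control culture 1 and lowest in control culture 3, and their differences of 0.19 ± 0.21 and 0.09 ± 0.21 were within the spread between cultures. Col4a5 and Col4a6 are a further head-to-head pair, on the X chromosome with starts 1343 bases apart, whose products share a network found in smooth muscle basement membranes. Col4a5 stood at 13.38, 13.04 and 13.12 in control and 13.45, 13.88 and 13.28 in transgenic cultures, a difference of 0.36 ± 0.18. Col4a6 stood at 10.06, 9.40 and 9.58 in control and 10.21, 9.99 and 10.72 in transgenic cultures, with its highest value in transgenic culture 3. It differed by 0.63 ± 0.30 (limma adjusted p = 0.448), and the groups overlapped. The second probe sets had the same sign, at 0.58 for Col4a5 and 0.89 ± 0.25 for Col4a6. On that Col4a6 probe set the transgenic cultures (8.89, 9.38 and 9.09) all lay above the controls (8.31, 8.15 and 8.22), with a limma adjusted p = 0.221 over all probe sets above the filter. Col4a4, known from kidney, lay near the filter and differed by -0.05 ± 0.29, and Col4a3, its partner there, lay below it at 5.88 to 7.10.

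Type VIII collagen is made from the chains of Col8a1 and Col8a2, and these differed in opposite directions. Col8a1 stood at 13.42, 11.62 and 11.47 in control and 13.83, 13.72 and 12.20 in transgenic cultures. Col8a2 stood at 9.61, 8.59 and 9.22 in control and 6.40, 7.50 and 9.38 in transgenic cultures. Transgenic cultures 1 and 2 were the highest of all for Col8a1 and the lowest of all for Col8a2, while transgenic culture 3 lay among the controls for both. The differences were 1.08 ± 0.60 and -1.38 ± 0.70 (limma adjusted p = 0.487 and 0.46), a 2.12-fold higher and a 2.6-fold lower signal. The other probe sets of Col8a1 gave 0.95 and 0.90, and on the former control culture 1 (10.96) lay above transgenic culture 2 (10.54). Fitted with the Gapdh ratio as covariate, Col8a1 differed by 1.19 and Col8a2 by -0.11, but that fit cannot cleanly separate the ratio from genotype.

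The 250 bases before the start of each type VIII gene are shown because the chains of one collagen type had opposite signs. They are RefSeq sequence of GRCm38.p6 on the gene's own strand, chr16:57754738-57754987 (minus) for Col8a1 and chr4:126286544-126286793 (plus) for Col8a2. Capitals mark GC boxes, the letters GGGCGG on either strand.
Col8a1: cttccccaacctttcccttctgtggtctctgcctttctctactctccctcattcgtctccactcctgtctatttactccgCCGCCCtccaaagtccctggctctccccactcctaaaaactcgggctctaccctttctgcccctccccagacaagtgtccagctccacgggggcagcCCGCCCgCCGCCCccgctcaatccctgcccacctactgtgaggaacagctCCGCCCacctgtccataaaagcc
Col8a2: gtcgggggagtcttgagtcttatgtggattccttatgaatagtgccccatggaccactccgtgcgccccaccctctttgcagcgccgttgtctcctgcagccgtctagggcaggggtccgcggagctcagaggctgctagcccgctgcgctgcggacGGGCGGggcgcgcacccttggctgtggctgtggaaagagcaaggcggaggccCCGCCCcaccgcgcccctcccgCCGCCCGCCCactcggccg
Each stretch held 4 matches, and a pair of those in Col8a2 overlap. Such a match was present in 20 of the 33 collagen promoters (60.6%) and in 32.9% of all promoters. TATAAA was present in 5 of the 33 (15.2%, against 13%). The direct repeat known to bind PPARG with RXR, searched as AGGTCA, any single base and AGGTCA again, was found in 0 of the 33 and in 10 of all 27025, which says only that these letters are not in these windows.

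Type VI collagen needs the products of Col6a1, Col6a2 and Col6a3 together to be secreted, and these genes shared the order of their extremes. Col6a1 stood at 14.52, 14.24 and 14.25 in control and 14.06, 13.22 and 14.32 in transgenic cultures. Col6a2 stood at 13.95, 13.30 and 12.98 in control and 13.28, 12.20 and 13.59 in transgenic cultures. Col6a3 stood at 13.52, 12.28 and 11.73 in control and 12.15, 11.36 and 12.72 in transgenic cultures. All 3 were highest in control culture 1 and lowest in transgenic culture 2, and the groups overlapped. Of all genes tested 11.7% were highest in control culture 1 and 31.5% were lowest in transgenic culture 2. Their differences were -0.47 ± 0.26, -0.39 ± 0.38 and -0.43 ± 0.49, and none passed the test. Without transgenic culture 2 they were -0.14, 0.02 and -0.07, and a fit with the Gapdh ratio as covariate gave 0.40, 0.99 and 1.27. That covariate cannot be cleanly separated from genotype here. In transgenic culture 2 the mean of the 20 fibroblast markers other than collagens lay at -0.61 against the control mean, with -0.21 and 0.07 in transgenic cultures 1 and 3. The mean of the adipocyte markers above the filter lay at -1.54, -2.91 and -0.64 in transgenic cultures 1 to 3. Transgenic culture 2 had 10 of 18 leukocyte and macrophage markers above the filter, against 4 or 5 on each other array. As log2 of the list's mean signal, those markers ran from 7.53 to 8.13 in control and from 8.10 to 10.28 in transgenic cultures, and the fibroblast markers from 13.90 to 14.04 and from 13.85 to 13.98. The part of these cells in the type VI values was not tested.

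**Figure D3:**
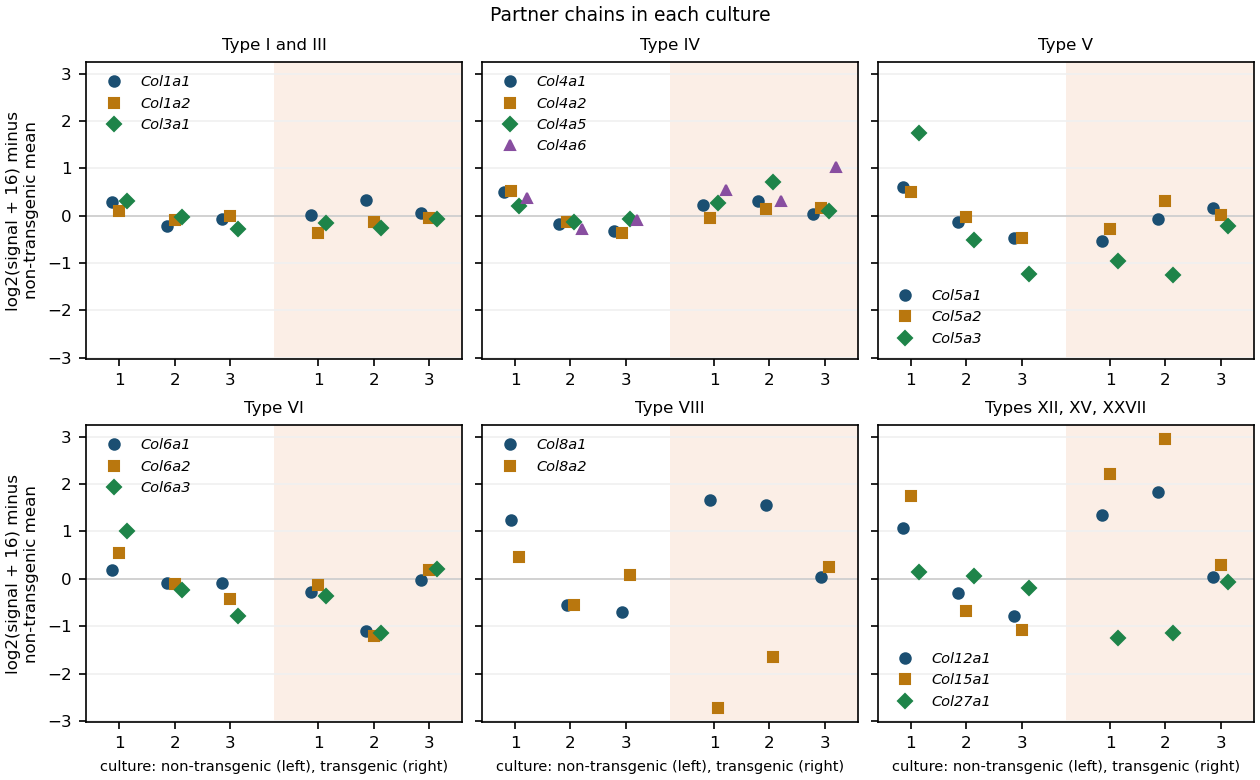
Level of partner chains in each culture, as log2(signal + 16) relative to the mean of the 3 control cultures, with a panel for each collagen type or set, culture numbers on the horizontal axis and transgenic cultures on the shaded ground. Col4a1 and Col4a2 follow each other among the controls, the 3 type VI chains are lowest in transgenic culture 2, and Col8a1 and Col8a2 lie on opposite sides in transgenic cultures 1 and 2.

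Col12a1 and Col15a1 had the largest higher values beside Col8a1. Col12a1 encodes a fibril-coating chain of loaded tissue, and Col15a1 a multiplexin that ties basement membranes to nearby fibrils. Col12a1 stood at 12.77, 11.40 and 10.93 in control and 13.05, 13.54 and 11.75 in transgenic cultures. Col15a1 stood at 10.70, 8.26 and 7.87 in control and 11.15, 11.90 and 9.24 in transgenic cultures. For both genes transgenic cultures 1 and 2 were highest, followed by control culture 1, and transgenic culture 3 lay below that control. The differences were 1.08 ± 0.57 and 1.82 ± 0.88 (limma adjusted p = 0.469 and 0.45), and the range of 4.03 for Col15a1 was the widest of the 27 chains. Without control culture 1 they were 1.61 and 2.70, and without control culture 3 they were 0.69 and 1.28. The second probe set of Col12a1, near the filter, gave 1.39 ± 0.36 (limma adjusted p = 0.215 over all probe sets above the filter). On it the transgenic cultures (8.62, 8.85 and 8.59), culture 3 included, all lay above the controls (8.03, 7.12 and 6.73).

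Col18a1, the other multiplexin and the source of endostatin, stood at 11.16, 10.07 and 9.72 in control and 10.82, 10.01 and 11.12 in transgenic cultures. The groups overlapped, with a difference of 0.33 ± 0.44. Its probe set and that of Col20a1 end in s_at, a kind that can read more than 1 transcript by the maker's naming. Those of Col1a2, Col3a1, Col6a2, Col14a1 and Col16a1 end in a_at. Among the genes acting on collagen, described below, those of Tgm2, Fmod, Serpinh1 and Ppib end in x_at. Neither of these kinds is named as reading a single transcript. Col14a1 and Col16a1, fibril-associated chains, were both highest in transgenic culture 3 and differed by 0.13 ± 0.38 and 0.04 ± 0.34. The second probe set of Col14a1 gave -0.67.

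Col19a1 and Col20a1, less abundant fibril-associated collagens, were lowest in transgenic culture 3. Col19a1, known from muscle, stood at 7.68, 8.60 and 8.77 in control and 7.71, 6.82 and 6.77 in transgenic cultures. Its groups overlapped only through control culture 1 and transgenic culture 1. The difference was -1.25 ± 0.42 (limma adjusted p = 0.428), and this is the chain with an unadjusted p under 0.05. The mean of this gene lies at the filter, and it dropped below it when control culture 2, control culture 3 or transgenic culture 1 was left out. Col20a1 stood at 8.78, 9.09 and 8.47 in control and 8.10, 8.33 and 8.07 in transgenic cultures, and is the chain whose groups did not overlap. It differed by -0.61 ± 0.28 (limma adjusted p = 0.444). Its other probe sets, all below the filter, gave -0.49, -0.73 and -0.73, and on each of them the groups overlapped. Col23a1, a transmembrane collagen, stood at 9.05, 8.08 and 8.43 in control and 7.54, 7.75 and 9.09 in transgenic cultures, which overlapped, and differed by -0.39 ± 0.47.

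The chains below the filter were not tested. Col7a1, the anchoring fibril chain of skin, stood at 7.69, 7.36 and 7.36 in control and 7.92, 8.06 and 7.75 in transgenic cultures, without overlap. Col22a1, a chain of tissue junctions, lay between 6.85 and 7.34 in control and between 7.48 and 7.68 in transgenic cultures. Its other probe sets, dimmer still, had the opposite sign, at -0.39 and -0.84. On the latter the transgenic cultures (4.73, 4.53 and 4.98) all lay below the controls (5.27, 5.50 and 5.98). Col2a1, the main cartilage chain, lay between 6.70 and 7.32 in all cultures.

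Much of the collagen variation lay among the controls. Control culture 1 was the highest control for 23 of the 27 chains (85.2%), as it was for 43.2% of all genes tested. It was the highest of all 6 cultures for 14 chains (51.9%) against 11.7% of all genes. It stood above the mean of the other controls by 2.61 for Col5a3, 2.63 for Col15a1, 1.88 for Col8a1, 0.90 for Col5a1 and 0.46 for Col3a1. Averaged over the 27 chains, the deviation from the control mean was 0.48, -0.14 and -0.34 in the controls and -0.13, -0.14 and 0.12 in transgenic cultures. The adipocyte markers, such as the adipokine gene Adipoq, had the same order among the controls, with deviations of 1.40, -0.42 and -0.98. Their deviations in transgenic cultures were -1.54, -2.91 and -0.64. Endothelial markers (0.47, -0.13 and -0.34) and leukocyte and macrophage markers (0.51, -0.15 and -0.36) had that control order too. So did chondrocyte and osteoblast markers (0.61, -0.29 and -0.32). Smooth muscle markers (0.14, -0.21 and 0.08) and mesothelial and epithelial markers (0.42, -0.71 and 0.29) did not. The part of any of these cells in the collagen values was not tested. The fibroblast markers other than collagens deviated by -0.02, -0.03 and 0.05 in the controls. Over the 6 cultures 7 chains (25.9%) ranged by more than 2, against 8.45% of all genes.

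Transgenic culture 3 lay within the range of the controls for 20 of the 27 chains (74.1%), as it did for 39.2% of all genes. On the probe set that stood for each gene, transgenic cultures 1 and 2 both lay above every control for Col4a5, Col8a1, Col12a1 and Col15a1, 4 chains (22.8% of all genes). The second probe set of Col12a1 also did so. On a dimmer probe set each of Col4a5 and Col8a1, control culture 1 lay above transgenic culture 1 (11.06 against 11.03) and transgenic culture 2 (10.96 against 10.54). Again on the probe set that stood for each gene, transgenic cultures 1 and 2 both lay below every control for Col1a2, Col6a1, Col8a2, Col20a1, Col23a1 and Col27a1, 6 chains (27.4% of all genes). Without transgenic culture 3, limma called 0 of 26 tested chains higher (7.07% of all genes) and 2 lower (7.79%). Col8a2 fell by 2.19 ± 0.44 on the log2 scale (limma adjusted p = 0.0172), a 4.56-fold lower signal, and Col27a1 fell by 1.19 ± 0.27 (limma adjusted p = 0.0245), a 2.29-fold lower signal. Col15a1 at 2.58 ± 0.75, Col12a1 at 1.59 ± 0.47 and Col8a1 at 1.61 ± 0.51 did not pass (limma adjusted p = 0.0559, 0.0596 and 0.072). Transgenic culture 3 was singled out by these same data. Leaving it out enlarged the difference for 21 of the 27 chains and for 8461 of all 11208 genes tested. The calls without it describe transgenic cultures 1 and 2 and are not separate support for a difference between the groups. With estimated array weights limma called 7 chains higher (22.8% of all genes) and 5 lower (26.3%), among them Col15a1 at 2.74, Col8a1 at 2.03, Col8a2 at -2.24 and Col27a1 at -1.22.

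Genes that modify, export, cut, crosslink, space or bind collagen were described beside the chains. Of 59 on the array 48 were tested, and none passed limma's test, as for all genes (0%). They had a median difference of 0.04, with 25 higher and 23 lower. At an unadjusted p under 0.05 stood 8 higher and 4 lower genes of the 48, where 6.47% and 5.02% of all genes did. Groups without overlap were found for 7 higher and 2 lower genes, where 9.39% and 6.72% of all genes had them.

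Of 14 tested genes of prolyl and lysyl modification, which are enzymes, their partner subunits and the prolyl isomerase Ppib, 11 lay higher, and 13 with centred arrays, where 47.5% and 75.3% of all genes lay higher. P4ha3, a catalytic subunit of prolyl hydroxylase, stood at 9.26, 9.06 and 8.73 in control and 10.87, 10.98 and 9.55 in transgenic cultures. The groups did not overlap, and the difference was 1.45 ± 0.41 (limma adjusted p = 0.428). Plod1, a lysyl hydroxylase, stood at 11.84, 11.36 and 11.16 in control and 12.48, 12.02 and 12.05 in transgenic cultures, again without overlap, and differed by 0.73 ± 0.23. P4ha2, a further prolyl hydroxylase subunit, differed by 0.50 ± 0.22. Chaperones and export factors split into 4 higher and 4 lower, and into 6 and 2 with centred arrays. Mia3, which loads collagen into transport carriers, differed by -0.62 ± 0.27, Fkbp14, a prolyl isomerase, by 0.43 ± 0.20, and Tmem38b, an ion channel of the endoplasmic reticulum, by -0.63 ± 0.35. Serpinh1, the collagen-specific chaperone, lay between 14.25 and 14.64 in all cultures.

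Of 5 tested genes of propeptide removal 3 lay higher and 2 lower. Pcolce2, an enhancer of that step, stood at 9.51, 9.97 and 9.63 in control and 10.64, 11.03 and 10.36 in transgenic cultures. The groups did not overlap, and the difference was 0.97 ± 0.27 (limma adjusted p = 0.428). Tll1 and Bmp1, proteases that remove the carboxyl propeptide, differed by 2.22 ± 0.86 and 0.68 ± 0.28. The lower members were Adamts3, a protease of the amino propeptide, at -1.89 ± 0.84, and Pcolce, the relative of Pcolce2, at -0.05 ± 0.09. All 5 tested crosslinking genes lay higher, with a median of 0.53, under the deposited scaling, centring and quantile normalization, and 4 of 5 did so in fits with the Gapdh or the beta-actin ratio as covariate and with the mean of all probe sets. Tgm2, a transglutaminase, stood at 13.47, 13.44 and 13.32 in control and 13.99, 14.19 and 13.72 in transgenic cultures. Its groups did not overlap, and it differed by 0.56 ± 0.14 (limma adjusted p = 0.428). Loxl3 and Loxl4, relatives of lysyl oxidase, differed by 0.53 ± 0.20 and 0.91 ± 0.44.

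All 8 tested genes whose products bind and organise fibrils lay lower under the deposited scaling, with a median of -0.45, where 52.5% of all genes lay lower, but 7 of 8 did so after quantile normalization and 4 of 8 with centred arrays (24.7% of all genes) or with the Gapdh ratio as covariate. The 4 smallest of these differences were -0.16 ± 0.08 for Bgn, -0.08 ± 0.10 for Fn1, -0.06 ± 0.80 for Tnxb and -0.04 ± 0.21 for Prelp. Lum, a small leucine-rich proteoglycan, stood at 8.96, 9.33 and 9.96 in control and 7.87, 6.88 and 8.92 in transgenic cultures. The groups did not overlap, with a difference of -1.53 ± 0.53 (limma adjusted p = 0.428). Dcn, of the same family, stood at 14.15, 14.57 and 14.71 in control and 13.16, 11.79 and 14.18 in transgenic cultures and differed by -1.44 ± 0.52. Postn, a matrix protein that helps crosslinking, differed by -0.73 ± 0.25. Dcn, Lum and Postn are also among the fibroblast markers, whose mean was lowest in transgenic culture 2. Of the receptors, the integrin subunit Itga1 differed by -1.54 ± 0.70, its partner Itgb1 by -0.29 ± 0.14 and the uptake receptor Mrc2 by 0.67 ± 0.30. The proteases Mmp2, Mmp14 and Ctsk differed by -0.52 ± 0.35, -0.21 ± 0.18 and 0.11 ± 0.28. Without transgenic culture 3, limma called 13 of the tested genes that act on collagen. Of these 6 were higher (P4ha3, Tgm2, Tll1, Pcolce2, Loxl3 and Loxl4) and 7 lower (Fmod, Adamts3, Postn, Dcn, Itga1, Lum and Mmp2), where 7.07% and 7.79% of all genes were called. As for the chains, these calls only describe transgenic cultures 1 and 2.

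**Figure D4:**
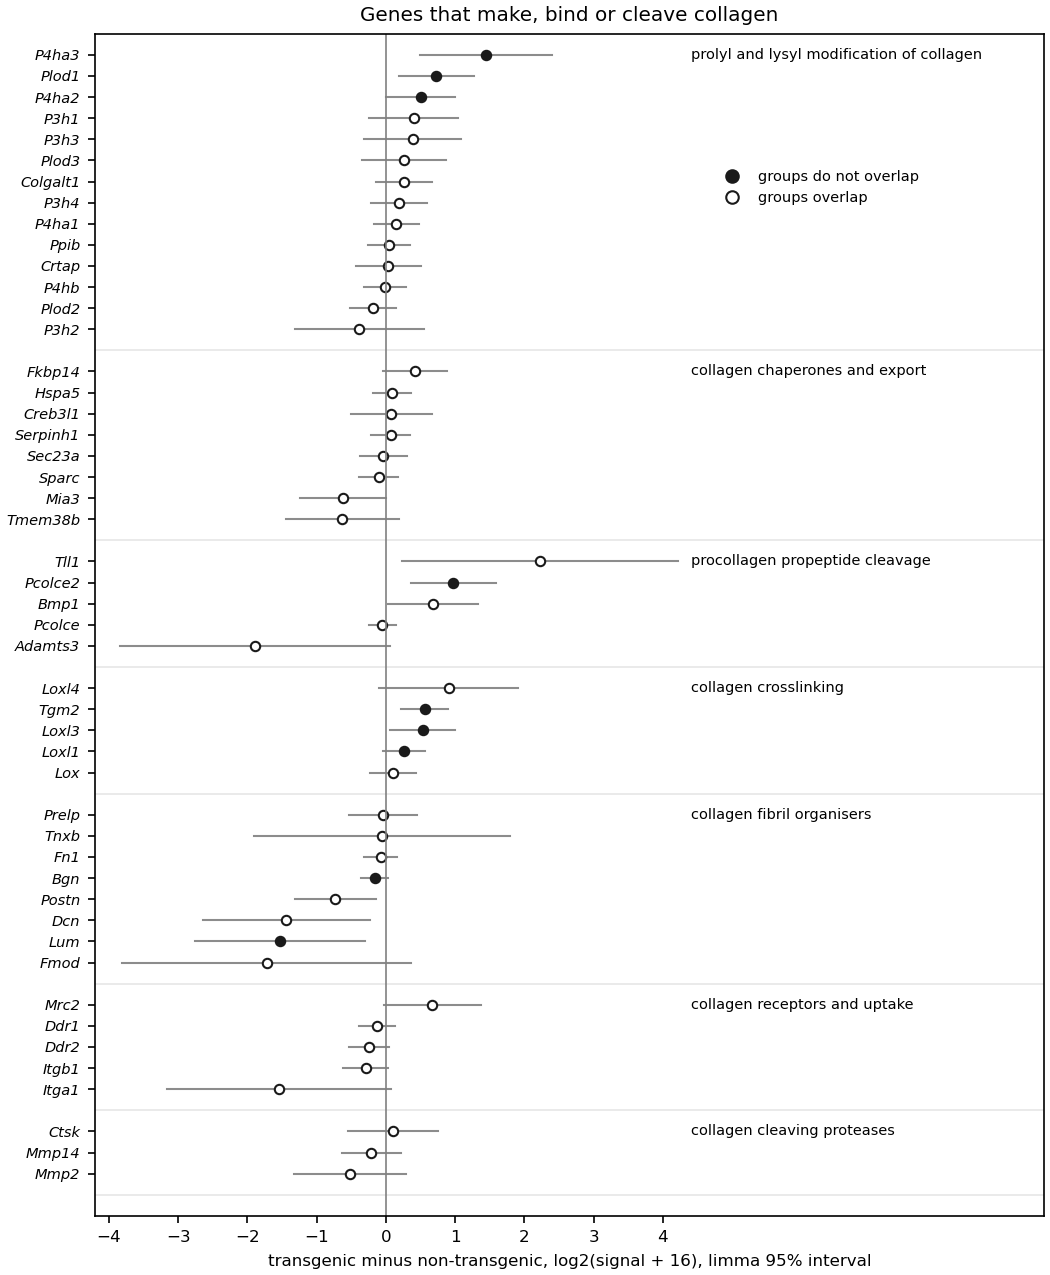
Transgenic minus control difference on the log2(signal + 16) scale for tested genes that modify, export, cut, crosslink, organise or bind collagen, with limma's 95% interval from 3 cultures per group; filled points are genes whose groups do not overlap. P4ha3, Plod1, Pcolce2 and Tgm2 lie to the right of 0, and the 8 fibril organisers lie left of 0 under the deposited scaling, 4 of them on the other side with centred arrays.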

How the data were processed

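RNA from 3 cultures per group was amplified and put on 1 Affymetrix mouse array each. The authors deposited an intensity for every probe set, computed by MAS5 according to the submitters' processing notes, with the software version not given in the sources used here. Array scaling was left as deposited, with a trimmed mean of 1500.01 on each array. At most 0.142% of values were identical between any 2 arrays. The annotation gave 1 gene for 34945 probe sets and several for 932, which were left unnamed, and symbols were updated through RefSeq's gene table. Values became log2(intensity + 16). The filter is the median over all probe sets except the 64 controls, applied to a gene's mean.

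Groups were compared with limma 3.58.1 in R 4.3.3 (eBayes with a trend, two-sided, Benjamini-Hochberg adjustment over all tested genes), tested on simulated data first. Errors are limma's standard errors, and p-values reflect the spread of 3 cultures per group, or of those left. Members and gene lists were chosen with earlier results of these data known. Values are given for the 12 brightest chains, the 6 largest differences in each direction, chains that share a trimer, the 3 chains on either side of the filter, and the 3 smallest p of each other list. Further genes (Col2a1, Col16a1, Col23a1, Col24a1, Serpinh1, Adamts3, Pcolce, Ppib, Bgn, Fn1, Tnxb, Prelp and Fmod) were added after their values were seen, as was the fit over every probe set. Settings varied were the pseudocount (1 or 64), the filter (none or the 75th percentile), scaling, trend, array weights, probe set choice, replicate block, 3' to 5' covariates and each array left out.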

Additional observations from a re-analysis of the deposited data

How the results depend on the processing

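No chain, no gene acting on collagen and no gene in all was called by limma under any alternative but estimated array weights, with 12, 29 and 5504 calls, and leaving out transgenic culture 3. Over the arrays left out in turn the calls ranged from 0 to 2 chains, 0 to 13 genes acting on collagen and 0 to 1659 genes in all, and the median difference of the chains from -0.24 to 0.15. With the Gapdh ratio as a covariate that median was 0.43, the median of all genes 0.12, and 22 of 27 chains lay higher. With the beta-actin ratio 19 of 27 lay higher, and with array weights 9 of 27. The cause of these shifts was not tested.

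Of 786 comparisons of single genes with their reported value, 700 kept direction and call, 42 became called and 44 turned direction. Centring gave 0.084 for Col1a2, 0.11 for Col3a1, 0.12 for Col5a1, 0.21 for Col4a4 and 0.058 for Mmp14. Quantile normalization gave -0.015 for Col5a2 and 0.20 for Col4a4. Array weights gave -0.17 for Col5a2, -0.0041 for Col11a1, -0.12 for Col14a1 and -0.43 for Ctsk, and the mean of all probe sets -0.21 for Col5a2 and -0.27 for Fkbp14. The Gapdh covariate gave 0.23 for Col3a1, 0.40 for Col6a1, 0.99 for Col6a2, 0.43 for Col5a1, 1.23 for Col5a3, 0.0022 for Col4a4, 1.27 for Col6a3, -0.084 for Fkbp14, 0.68 for Mmp2 and 0.24 for Mmp14. The beta-actin covariate gave 0.052 for Col6a2, 0.018 for Col5a1, 0.011 for Col4a4 and 0.079 for Col6a3. With arrays left out the ranges that crossed 0 were -0.10 to 0.34 for Col4a2, -0.22 to 0.27 for Col5a2, -0.67 to 0.024 for Col6a2, -0.38 to 0.16 for Col5a1, -0.12 to 0.40 for Col11a1, -1.43 to 0.055 for Col5a3, -0.15 to 0.023 for Col4a4, -0.82 to 0.073 for Col6a3, -0.22 to 0.36 for Col14a1 and -0.063 to 0.36 for Ctsk. Some genes fell below the filter under an alternative and have no value there.

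Cultures with the same number did not deviate together (correlations of 0.04, -0.28 and -0.03). Such correlations cannot show whether cultures of the same number were handled as pairs. With the replicate block 0 chains were called, their median difference was -0.05, and 4 chains instead of 1 had an unadjusted p under 0.05. The number of arrays limits the precision.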
